A study of Mus musculus with 4 samples.

Results

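Of 2700 central memory T cells (Tcm) with a called T cell receptor (TCR), 215 belonged to clones of 2 to 5 cells and 2482 were the lone cell of their clonotype, and the other 3 lay in clones of 16, 32 and 35 cells. A Tcm cell was a cell that the authors' clustering of gene expression had named Tcm, and a clonotype was a set of TRA and TRB chains with identical gene segments and identical CDR3 bases. Clone size was the number of cells of any cluster that shared the clonotype within a library. The cluster name and the clone size therefore chose the members, and clones of 2 to 5 cells are called small clones and lone cells singletons below. Small clones held 110 different clonotypes, and none of them was found in more than 1 library.

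The cells were CD8+ T cells sorted from the bone marrow (BM) 4 weeks after stem cell transplantation (SCT) of myeloma-bearing mice. Recipients were young adult female mice on a C57BL/6 background, either WT or transgenic for CRBN, the cereblon protein that lenalidomide binds, and all received BM and T cells from genetically matched donors. The treatments were αTIGIT, lenalidomide, αTIGIT with lenalidomide, and isotype control antibody (cIg) with vehicle. Antibody was given from the day of SCT and lenalidomide or its vehicle from day 14. Each treatment was 1 library of 5 pooled mice, so a clone could come from any of those mice. The libraries carry the numbers 1 to 4, which no label ties to a treatment, so treatments are not compared here. Instead, small clones were compared with singletons within each library, and the spread between libraries includes whatever the treatments did.

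Central memory cells are antigen-experienced cells that recirculate through lymphoid organs, divide on re-encounter and survive on the cytokines IL-7 and IL-15. A clonotype with several cells in a sample of this size has usually divided, because V(D)J joining rarely makes the same TRA and TRB pair in separate thymocytes. A singleton may be an unexpanded cell or a member of a clone whose other cells were not sampled. CD8+ cells with memory markers can also arise without foreign antigen, in the thymus or during lymphopenia, and such cells are known for high CD122 (Il2rb) and NK receptors.

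The deposited Tcm cluster matched part of its name. Il2rb, which encodes the IL-2 and IL-15 receptor β chain, ranked first in Tcm, at 965 CPM (UMIs of a gene for each 1000000 UMIs). The level in Tigit+ Teff was close, at 955 CPM. Cd44 and Tcf7 ranked 2 of the 8 clusters. Ccr7, the lymph node homing receptor, had 26.3 CPM against 226 CPM in naive cells (Tn), and Il7r, the IL-7 receptor, had 25.5 CPM against 395 CPM and ranked 6 of 8. The NK receptor genes Klrb1c and Klra7 were highest in Tcm, with 242 and 317 CPM. These genes took part in the clustering and describe the cluster without testing it. The name Tcm is kept here as the deposited label.

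Of the 110 small clones, 85 lay wholly within the Tcm cluster, and 4 of these had 4 or 5 cells. Their CDR3 sequences are shown because these were the largest clones made up of Tcm cells alone. The sequences were read from the deposited TCR table, each from 5′ to 3′, and capitals mark junction bases that matched neither the germline V nor the germline J gene of the mouse reference.
Library 1, 4 cells, TRA (TRAV5-4, TRAJ47): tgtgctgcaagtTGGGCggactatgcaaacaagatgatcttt
Library 1, 4 cells, TRB (TRBV2, TRBJ2-7): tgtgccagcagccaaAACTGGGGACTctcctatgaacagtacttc
Library 4, 4 cells, TRA (TRAV4-2, TRAJ34): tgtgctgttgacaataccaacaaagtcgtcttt
Library 4, 4 cells, TRB (TRBV13-3, TRBJ2-4): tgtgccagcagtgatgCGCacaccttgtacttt
Library 4, 4 cells, TRA (TRAV7D-5, TRAJ56): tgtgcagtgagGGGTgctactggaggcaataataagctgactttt
Library 4, 4 cells, TRB (TRBV12-2+TRBV13-2, TRBJ2-7): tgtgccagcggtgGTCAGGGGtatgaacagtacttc
Library 4, 5 cells, TRA (TRAV7D-3, TRAJ9): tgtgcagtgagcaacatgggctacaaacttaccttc
Library 4, 5 cells, TRA (TRAV1, TRAJ17): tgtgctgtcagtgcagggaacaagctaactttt
Library 4, 5 cells, TRB (TRBV19, TRBJ2-5): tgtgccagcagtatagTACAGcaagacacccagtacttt

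The 4 clones used different TRBV calls, and the 5 TRA chains used different TRAV and TRAJ genes. The TRA chain of TRAV4-2 with TRAJ34 and both TRA chains of the 5-cell clone had 0 junction bases outside V and J. The TRB chains of the 4 clones had 11, 3, 8 and 5 such bases. TRAV7D-3 and TRAV7D-5 have closely related copies in the duplicated part of the mouse TRAV locus, so these gene names are less certain than the CDR3 bases.

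Small clones were mostly pairs of cells. There were 92 clones of 2 cells, 13 of 3, 3 of 4 and 2 of 5, and they contributed 166, 31, 12 and 6 Tcm cells. Library 1 held 34 of the clones, library 2 held 9, library 3 held 7 and library 4 held 60. Small clones therefore made up 8.01% of the Tcm cells with a TCR in library 1 (Clopper-Pearson 95% interval 6.26% to 10.1%), 3.47% in library 2 (1.96% to 5.66%), 3.80% in library 3 (1.98% to 6.54%) and 10.8% in library 4 (9.08% to 12.8%). The share over all libraries was 7.96%, beside 2.01% in Tn and 14.5% in transitory Teff, the effector cluster with the most cells in small clones. Intervals here cover counting error only. Libraries 1 to 4 held 836, 432, 316 and 1116 Tcm cells with a TCR, and 2504, 1527, 1237 and 2693 such cells of any cluster. How often a second cell of a clone is sampled depends on these numbers, and the shares were not adjusted for them. Because libraries 1 and 4 held 94 of the 110 clones and 188 of the 215 cells, they carry most of what follows.

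Sister cells of Tcm cells were mostly Tcm cells too. When each Tcm cell of a small clone was set against every other cell of its clone, 254 of 288 such sisters were Tcm, or 88.2%, and Tcm cells made up 28.5% of all cells in clones of 2 to 5 cells. By library the share was 88.4%, 75.0%, 71.4% and 90.7%. The same share for transitory Teff cells was 48.7%, 48.9%, 31.7% and 52.2%. Tcm was higher in 4 of 4 libraries, by 36.0 percentage points ± 6.61 (SD, n = 4), and an exact two-sided sign-flip permutation test gave p = 0.13, the smallest that 4 libraries allow. In the other clusters the share in a cell's own cluster ran from 5.41% in GzmA+ Tex to 39.6% in cycling cells. Such a share depends on how many small-clone cells a cluster holds. Of 755 small-clone cells, 215 were Tcm, 210 transitory Teff, 139 cycling cells, 49 Tim-3+ Tex and 23 Tn. The share was 37.8% in Tim-3+ Tex and 32.3% in Tn despite these low numbers. Whether Tcm stands out relative to cluster size was not tested.

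**Figure D1:**
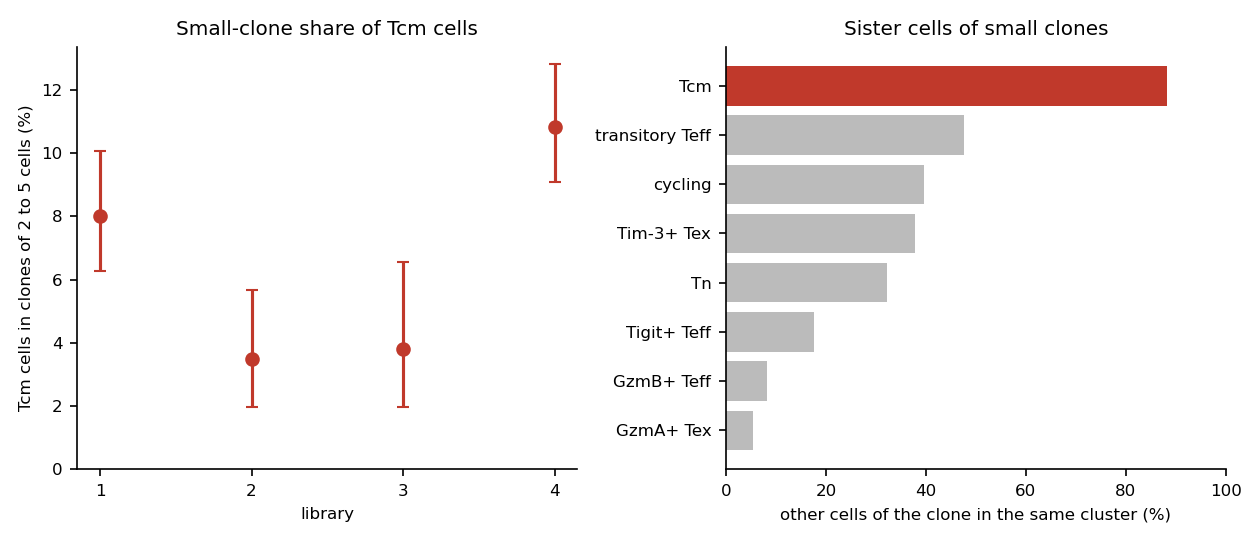
Left, the percentage of Tcm cells with a TCR that lay in clones of 2 to 5 cells, by library, with 95% Clopper-Pearson intervals. Right, for cells of each cluster in clones of 2 to 5 cells, the percentage of the other cells of their clones that lay in the same cluster, over all libraries. The Tcm bar stands at 88.2% and the next, transitory Teff, at 47.6%. The bars are not adjusted for the number of small-clone cells in a cluster.

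Of the 25 clones that crossed into another cluster, more did so into GzmB+ Teff than into any other cluster when all libraries were counted together. There were 10 pairs of a Tcm and a GzmB+ Teff cell and 1 clone of 2 Tcm cells and 1 GzmB+ Teff cell. Transitory Teff shared 3 pairs, cycling cells 2 pairs, and Tn, Tigit+ Teff and Tim-3+ Tex 1 pair each. The other clones had 3 or more cells, among them 1 Tcm cell with 3 Tigit+ Teff cells and 1 Tim-3+ Tex cell in library 1. GzmB+ Teff accounted for 12 of the 34 sisters outside Tcm, Tn and cycling cells for 5 each, and transitory and Tigit+ Teff for 4 each. All 4 of the Tigit+ Teff sisters were in library 1, which had 2 in GzmB+ Teff. A TCR was not called in every cell, so shares of sisters refer to cells with a call.

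Small-clone and singleton cells were of similar depth. The median was 6947, 5572, 7445 and 6979 UMIs per cell in small clones of libraries 1 to 4, against 6810, 6370.5, 7091.5 and 7052 in singletons (higher in 2 of 4 libraries, exact sign-flip p = 0.875). At 2500 UMIs per cell, small-clone cells showed a median of 1114, 1059, 1104.5 and 1083 genes and singletons 1112, 1066, 1097 and 1087. The mitochondrial percentage of UMIs was lower in small clones in 4 of 4 libraries, with 2.19%, 2.05%, 1.98% and 2.04% against 2.28%, 2.27%, 2.35% and 2.16% (difference −0.196 percentage points ± 0.12, SD, n = 4, exact sign-flip p = 0.13). Summed transcripts of macrophages were 101 to 126 CPM in small clones and 80.1 to 105 CPM in singletons, those of B and plasma cells 162 to 297 and 191 to 223 CPM, and those of neutrophils and erythroid cells 4.32 to 11.4 and 7.26 to 16.5 CPM. UMIs were summed per library and class before testing, which gave 87517 to 844093 UMIs in the small-clone sums and 2306159 to 7433133 in the singleton sums. A lone UMI was worth 11.4 and 11.2 CPM in the small-clone sums of libraries 2 and 3.

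Few genes were called between small clones and singletons. Of 5234 genes with a mean of at least 20 CPM, 4 passed an adjusted p of 0.05, which is 0.0764% of those tested, by edgeR's quasi-likelihood test with library as a block and Benjamini-Hochberg adjustment. One was higher in small clones (0.0191%) and 3 were lower (0.0573%). At an unadjusted p under 0.05 there were 247 genes, or 4.72%. In 4 of 4 libraries, 363 of the 5234 genes (6.94%) were higher in small clones and 404 (7.72%) lower. DESeq2 called 2 genes. The same test was run on counts simulated with 200 of 5234 genes changed and the same dispersion for every gene. It recovered 85% of genes changed by a log2 of 1 and 98% of those changed by 2. Clones were not simulated, and the adjusted threshold is stricter where fewer genes change. These shares therefore do not give the power in the real data. Of the 4 called genes, 3 were TCR genes, and Ifi27l2a was the only other.

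Ifi27l2a, an interferon-inducible gene, fell in small clones. It had 139.5, 231.5, 170.4 and 163.2 CPM in singletons of libraries 1 to 4 and 79.9, 182.8, 78.5 and 65.2 CPM in small clones. Every library was lower in small clones, although library 2, which was the highest in both classes, overlapped the range of the singletons. The log2 ratio of small clones over singletons was −1.01 ± 0.15 (SE), with an adjusted p of 0.000803 (edgeR). The gene (ENSMUSG00000079017) lies on chromosome 12 at 103442167 to 103443680, minus strand, of the mm10 (GRCm38) build.

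The Ifi27l2a difference was not carried by few clones, but its call rested on library 4. The 115 UMIs in small clones came from 49 of the 110 clones, with at most 6 in a clone. In library 4 the level was 163 CPM in singletons (Poisson 95% interval 154 to 173), 73.7 CPM in clones of 2 cells (53.8 to 98.7) and 42.8 CPM in clones of 3 to 5 cells (20.5 to 78.6). In library 1 it was 140 CPM (130 to 150), 56.1 CPM (34.7 to 85.7) and 181 CPM (104 to 294), so the low level there was that of pairs. Clones with every cell in Tcm had 64.5 and 56.5 CPM in libraries 1 and 4, and clones that crossed into another cluster 225 CPM (108 to 413) and 118 CPM (64.6 to 198). Ifi27l2a was lowest in Tcm among the 8 clusters and reached 1671 CPM in GzmB+ Teff, 1224 CPM in transitory Teff and 375 CPM in Tn. Without library 4 the log2 ratio was −0.73 and the adjusted p 0.491. With clonotypes restricted to cells of 1 TRA and 1 TRB chain the adjusted p was 0.182.

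The other interferon-response genes were not called. Of 24 on the list, 15 passed the filter, 1 was called, and 6 had a log2 ratio above 0 and 9 below, with a median of −0.02 beside 0.0023 for all genes tested. Gbp2, an interferon-induced GTPase, had the next smallest p on the list. It had 39.4, 45.7, 34.7 and 34.4 CPM in singletons and 28.1, 11.4, 22.4 and 27.2 CPM in small clones, without overlap, and did not pass the test (log2 ratio −0.50 ± 0.23, edgeR adjusted p = 0.987).

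**Figure D2:**
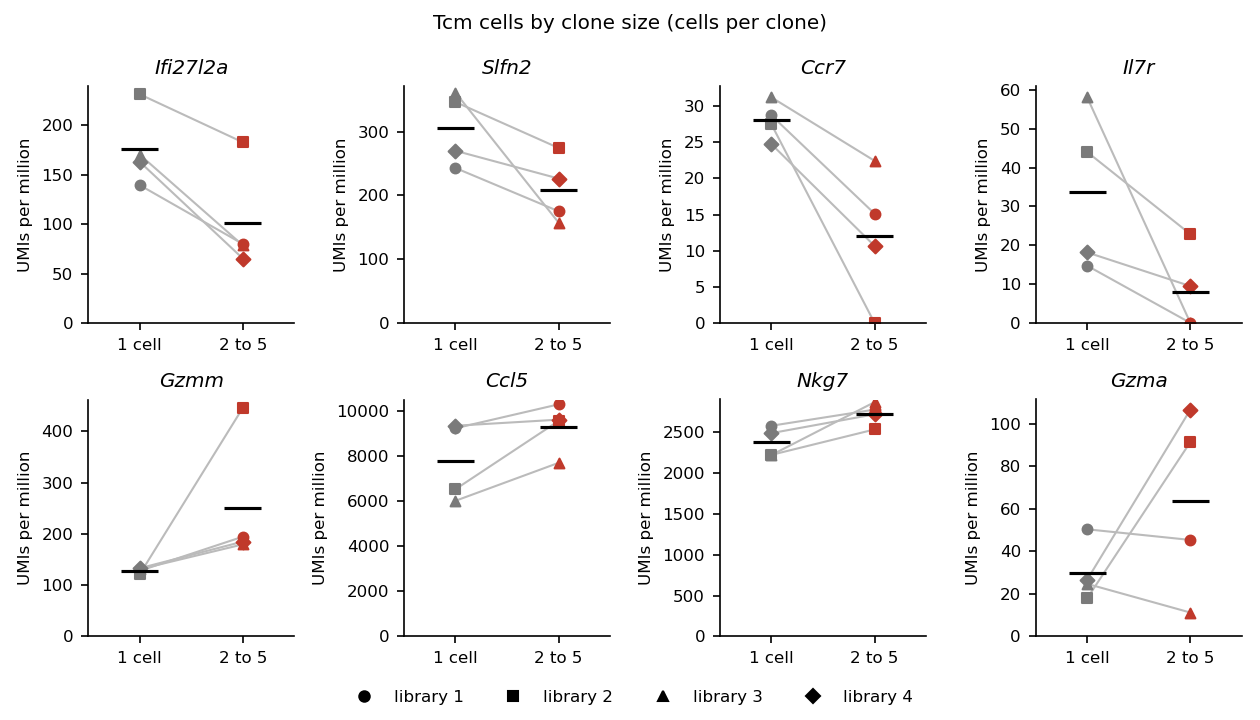
Level in CPM in Tcm singletons (1 cell) and in Tcm cells of clones of 2 to 5 cells, for 8 genes in 4 libraries; symbols mark libraries, grey lines join the classes of a library and black bars are means over libraries. Ifi27l2a is the only one of the 8 that passed the test, from a mean of 176 to 102, and the Gzmm mean of small clones, 251, includes 446 in library 2.

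Granule and chemokine genes came closest to being called in the other direction. Gzmm, which encodes granzyme M, had 127.8, 120.7, 131.0 and 132.8 CPM in singletons and 194.4, 445.6, 179.5 and 184.8 CPM in small clones. The groups did not overlap, which held for 228 of the 5234 genes (4.36%), beside 0.0764% of genes called, and the singletons varied little. The log2 ratio was 0.71 ± 0.15 and the edgeR adjusted p 0.0812, so Gzmm was not called. In library 2, 15 of the 39 Gzmm UMIs belonged to a clone of 2 cells and 12 to a single cell. In library 1, 32 of the 90 UMIs belonged to the 4-cell clone of TRAV5-4 and TRBV2 shown above. Over all libraries, UMIs of Gzmm were found in 68 of the 110 clones. Gzmm was higher under all 22 other settings tried and passed the threshold under 7 of them, among them sizes counted among Tcm cells alone (log2 ratio 0.62, edgeR adjusted p = 0.044) and cells thinned to 2500 UMIs (0.81, adjusted p = 0.00874). Settings under which it did not pass included 1 cell per clone (0.71, edgeR adjusted p = 0.821), clones of 2 cells alone (0.61, edgeR adjusted p = 0.537) and DESeq2 (0.84, adjusted p = 0.406).

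Ccl5, a chemokine of memory and effector CD8+ cells, had 9226, 6522, 6010 and 9337 CPM in singletons and 10286, 9552, 7694 and 9607 CPM in small clones. It was higher in 4 of 4 libraries with overlapping groups, and its log2 ratio of 0.25 ± 0.05 had an edgeR adjusted p of 0.0812. Ccl5 was above 0 under all 22 other settings and called under 3. Among cells with at most 2 UMIs of macrophage, B, plasma, neutrophil and erythroid transcripts, chosen after the data were seen, its log2 ratio was 0.03 (edgeR adjusted p = 0.999). Nkg7, a granule membrane protein needed for exocytosis, had 2582, 2225, 2222 and 2491 CPM in singletons and 2780, 2537, 2871 and 2722 CPM in small clones (log2 ratio 0.17 ± 0.04, edgeR adjusted p = 0.311). Gzma, granzyme A, had 50.4, 17.9, 24.7 and 26.6 CPM and then 45.4, 91.4, 11.2 and 107 CPM, which was higher in 2 libraries and lower in the other two. Its log2 ratio was 1.23 ± 0.28 with an edgeR adjusted p of 0.14, and 35 of the 90 Gzma UMIs of small clones in library 4 came from 1 cell. Without library 4 the Gzma log2 ratio was 0.22 (edgeR adjusted p = 0.9999), and without library 1 it was 1.83 and called (adjusted p = 0.00164). Gzmk, granzyme K, had 20.1, 19.3, 29.5 and 12.2 CPM and then 43.2, 103, 22.4 and 28.4 CPM, higher in 3 of 4 libraries (log2 ratio 1.20 ± 0.28, edgeR adjusted p = 0.151). None of these passed the main test, which used all libraries. Over clone sizes, Gzmk was higher in the larger clones, with 20.1, 26.7 and 113 CPM (Poisson 54.3 to 208) in clones of 1, 2 and 3 to 5 cells in library 1 and 12.2, 14.7 and 64.1 CPM (35.9 to 106) in library 4, which rested on 10 and 15 UMIs in the largest class. In clones with every cell in Tcm, Gzmk had 26.3 CPM (13.1 to 47.0) in library 1 and 19.3 CPM (10.5 to 32.4) in library 4, and in clones that crossed into another cluster 202 CPM (92.4 to 384) and 84.4 CPM (40.5 to 155). With clones of 2 cells alone its log2 ratio was 0.28 (edgeR adjusted p = 0.99997).

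The list of cytotoxic granules, chemokines and cytokines as a whole leaned the same way without a call. Of its 25 genes 21 passed the filter, 18 had a log2 ratio above 0 and 3 below, and the median was 0.20, beside 2650 of 5234 above 0 and a median of 0.0023 for all genes. Gzmb, the granzyme that marks activated effectors, was 101, 55.4, 65.5 and 144 CPM in singletons and 108, 57.1, 336 and 126 CPM in small clones (log2 ratio 0.22 ± 0.22, edgeR adjusted p = 0.9999). The list of effector transcription and signalling factors had 10 of 13 above 0, with a median of 0.09 and 0 calls. Ikzf3, the lymphoid factor Aiolos and a target that lenalidomide-bound cereblon degrades, had 197, 203, 219 and 178 CPM in singletons and 227, 320, 213 and 201 CPM in small clones (log2 ratio 0.21 ± 0.10, adjusted p = 0.987). Ikzf2, which encodes Helios, had a log2 ratio of −0.22 ± 0.12 (adjusted p = 0.987).

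Naive cell genes leaned lower in small clones, while the memory and homing genes had a median log2 ratio of −0.01. Ccr7 had 28.7, 27.5, 31.2 and 24.8 CPM in singletons and 15.1, 0, 22.4 and 10.7 CPM in small clones, without overlap, on 18 UMIs in small clones (log2 ratio −1.13 ± 0.32, edgeR adjusted p = 0.366). Il7r had 14.7, 44.0, 58.1 and 18.2 CPM and then 0, 22.9, 0 and 9.48 CPM, on 10 UMIs in 5 cells (log2 ratio −1.65 ± 0.44, edgeR adjusted p = 0.311). Its log2 ratio was below 0 under 15 of 16 other settings and called under 3 of them, among them clones with every cell in Tcm (−3.07, edgeR adjusted p = 0.0154). That call rests on few UMIs, since such clones had 0 Il7r UMIs in library 1 and 1 in library 4. Clones of library 4 that crossed into another cluster had 7, and this setting left them out. The Il7r log2 ratio was −2.96 without library 4 (edgeR adjusted p = 0.41) and 0.13 with clonotypes defined by TRB alone. Libraries 1 and 3 had 0 Il7r UMIs in small clones. Cd44 had a log2 ratio of −0.11 ± 0.16, Tcf7 of −0.13 ± 0.11 and Il2rb of −0.0010 ± 0.05, all with an adjusted p of 0.9999.

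Of 20 naive cell genes 10 passed the filter, 8 were below 0 and 2 above with a median of −0.11, and of 30 memory and homing genes 22 passed with 13 below and 9 above and a median of −0.01. Ly6c2, of the memory and homing list, had 1525, 1609, 1705 and 1417 CPM in singletons and 1067, 1805, 1301 and 1272 CPM in small clones (log2 ratio −0.26 ± 0.07, edgeR adjusted p = 0.311). It did not set Tcm apart, with 1474 CPM over all Tcm cells, 1731 CPM in Tn and 2056 CPM in GzmB+ Teff. Stemness and quiescence factors had 13 of 16 below 0, with a median of −0.11. Among them Slfn2, a Schlafen protein that holds T cells quiescent, had 243, 346, 361 and 270 CPM in singletons and 175, 274, 157 and 226 CPM in small clones, lower in 4 of 4 libraries (log2 ratio −0.42 ± 0.10, edgeR adjusted p = 0.243). Id3, an inhibitor of E proteins, was lower in 3 of 4 libraries with a log2 ratio of −0.97 ± 0.26 (adjusted p = 0.311). None of these lists had a call. Since Tn cells have much Ccr7 and Il7r, the comparison was repeated on cells without a UMI of either gene, an alternative chosen after the data were seen. Ifi27l2a then had a log2 ratio of −1.17 (edgeR adjusted p = 0.00023) and Gzmm of 0.74 (adjusted p = 0.107).

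NK receptor genes, which set the Tcm cluster apart, had no call, although more of them had a log2 ratio above 0 than below. Klrb1c, which encodes NK1.1, had 224, 234, 237 and 272 CPM in singletons and 238, 240, 247 and 274 CPM in small clones (log2 ratio 0.04 ± 0.09, edgeR adjusted p = 0.9999). Klra7, an inhibitory Ly49 receptor, had a log2 ratio of −0.09 ± 0.10 (adjusted p = 0.9999) and Klrk1, which encodes NKG2D, of 0.20 ± 0.07 (adjusted p = 0.799). Of 30 genes of NK receptors and adaptors 19 passed the filter, 12 were above 0 and 7 below, and the median was 0.06 with 0 calls. At an unadjusted p under 0.05, 5 of the 19 were higher and 1 lower, beside 128 and 119 of all 5234 genes. Hcst, the adaptor of NKG2D, had a log2 ratio of 0.13 ± 0.05 (adjusted p = 0.918). The list of innate-like and unconventional T cell genes had 9 of 13 above 0 with a median of 0.06 and 0 calls. Cd244a, a SLAM family receptor, had 31.9, 24.1, 34.7 and 35.7 CPM in singletons and 69.1, 45.7, 89.7 and 35.5 CPM in small clones (log2 ratio 0.60 ± 0.22, edgeR adjusted p = 0.806).

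The inhibitory receptor genes Tigit and Pdcd1 were scarce in both classes, while Cd160 was not. Only 8 of 20 genes on the list of inhibitory receptors and exhaustion passed the filter, with 5 above 0, a median of 0.13 and 0 calls. Tigit, the inhibitory receptor targeted by αTIGIT, had 38.1, 18.2, 36.0 and 36.1 CPM in singletons and 45.4, 11.4, 0 and 42.6 CPM in small clones (log2 ratio 0.11 ± 0.23, edgeR adjusted p = 0.9999). Pdcd1, which encodes PD-1, did not pass the filter, with 2.06 to 8.24 CPM in singletons and 6.48, 0, 0 and 0 CPM in small clones. Cd160, an inhibitory receptor of memory cells, had 488, 426, 467 and 482 CPM in singletons and 546, 423, 628 and 527 CPM in small clones. Its log2 ratio was 0.16 ± 0.07 (edgeR adjusted p = 0.987).

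Cell cycle genes had no call, and all 12 of the 24 that passed the filter were below 0, with a median of −0.21. Tubb5, a tubulin, had 412, 377, 428 and 413 CPM in singletons and 343, 331, 359 and 376 CPM in small clones, without overlap (log2 ratio −0.20 ± 0.07, edgeR adjusted p = 0.806). Stmn1, which regulates microtubules, had 30.8, 45.7, 46.4 and 34.3 CPM and then 17.3, 0, 67.3 and 20.1 CPM (log2 ratio −0.73 ± 0.28, adjusted p = 0.904). Immediate early and activation genes had 14 of 18 below 0 and a median of −0.13. Fos, an AP-1 subunit that is also induced by handling of cells, had 97.2, 192, 183 and 206 CPM in singletons and 99.4, 57.1, 89.7 and 168 CPM in small clones (log2 ratio −0.37 ± 0.14, adjusted p = 0.918). Nfkbia, the inhibitor of NF-κB, had a log2 ratio of −0.21 ± 0.09 (adjusted p = 0.944).

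Genes of the TCR complex and its signalling had 16 of 25 above 0, a median of 0.05 and 0 calls. Fyn, a Src family kinase, had 379, 299, 358 and 333 CPM in singletons and 419, 423, 471 and 389 CPM in small clones, without overlap (log2 ratio 0.24 ± 0.08, edgeR adjusted p = 0.707). Lat, the adaptor of TCR signalling, had a log2 ratio of 0.19 ± 0.08, Cd3e of −0.01 ± 0.05 and Cd8a of −0.05 ± 0.11, with adjusted p from 0.987 to 0.9999. Cytokine and costimulatory receptors had 8 of 22 above 0 and a median of −0.06, among them Cd2, an adhesion and costimulatory receptor, with 468, 435, 475 and 445 CPM in singletons and 536, 571, 695 and 474 CPM in small clones (log2 ratio 0.21 ± 0.07, adjusted p = 0.797). The S100, galectin and annexin genes had 9 of 15 above 0 and a median of 0.06, led by Crip1 with 0.17 ± 0.06 and S100a6 with 0.15 ± 0.06 on the log2 scale (adjusted p = 0.806 and 0.918). Of the 16 macrophage transcripts 1 passed the filter, of the 16 B and plasma cell transcripts 2 did, and of the 16 neutrophil and erythroid transcripts 0 did, and none was called.

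**Figure D3:**
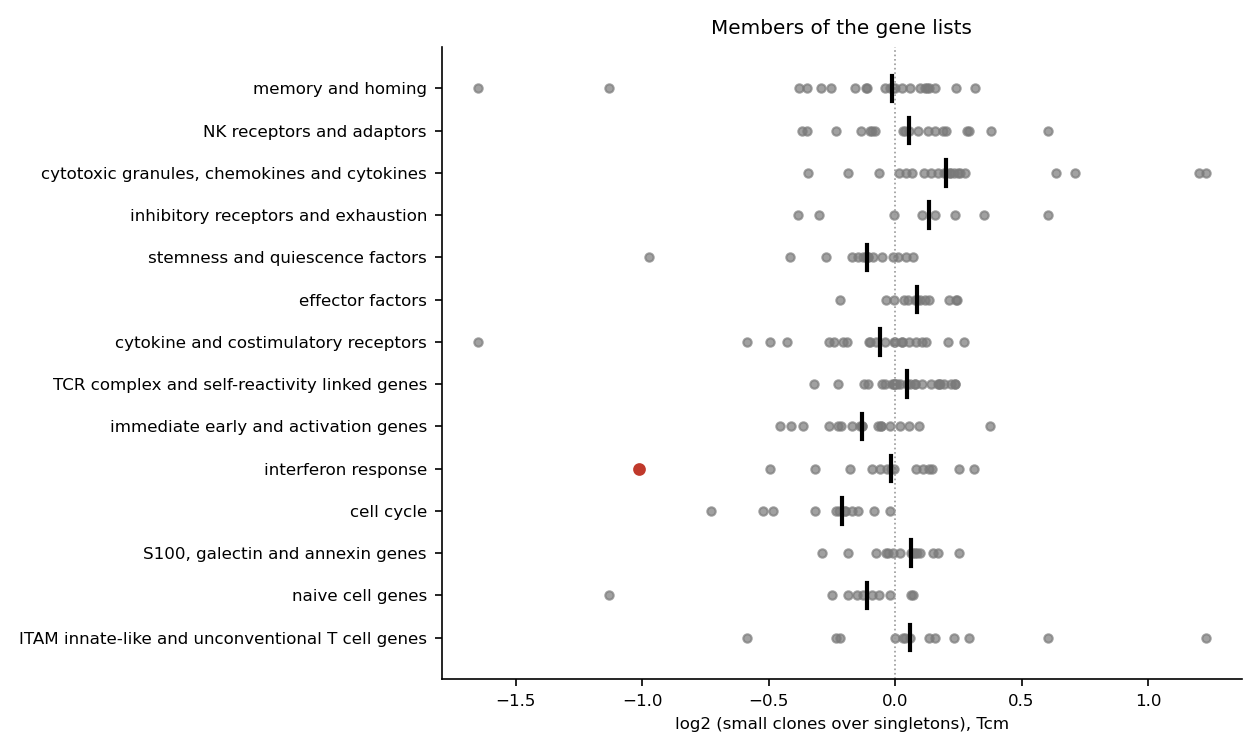
Log2 ratio of small clones over singletons in Tcm for each gene that passed the filter on 14 gene lists, with a black bar at each list's median. The red point is Ifi27l2a, the only listed gene that passed the test, and the medians lie between −0.21 for the cell cycle and 0.20 for cytotoxic granules, chemokines and cytokines.

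Outside the lists, the genes with the smallest p that differed the same way in all 4 libraries also missed the threshold. Of all genes tested, 6.94% were higher in small clones in 4 of 4 libraries and 7.72% lower. Higher in small clones were Fgl2, which encodes a secreted fibrinogen-like protein, with a log2 ratio of 0.49 ± 0.13, Comtd1 with 0.74 ± 0.20, Lair1, a collagen-binding inhibitory receptor, with 0.98 ± 0.29, Lrrc8c, a subunit of volume-regulated anion channels, with 0.51 ± 0.15, and Mphosph9 with 0.75 ± 0.23. Their edgeR adjusted p ran from 0.311 to 0.64. Lower were Inpp4b, a phosphoinositide phosphatase, with −1.19 ± 0.31, mt-Co3, a mitochondrial subunit of cytochrome c oxidase, with −0.16 ± 0.04, Gm8369 with −0.63 ± 0.18 and Sdhaf2, an assembly factor of succinate dehydrogenase, with −0.81 ± 0.24, at adjusted p from 0.311 to 0.476.

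The 3 called TCR genes code for parts of the receptors from which the clonotypes were called, and the cells of a clone share them, so that a few clones weigh heavily in their sums. Trbv13-1 had 142, 186, 142 and 123 CPM in singletons and 56.2, 0, 11.2 and 16.6 CPM in small clones (log2 ratio −2.29 ± 0.24, edgeR adjusted p = 5.37e-06). Trbv15 had 47.0, 120.0, 119.2 and 70.1 CPM in singletons and 0 UMIs in all small-clone sums (edgeR adjusted p = 3.65e-08). The UMIs of a clone are not independent, so these sums set no bound on a fold difference. Trav14-3 had 8.77, 10.3, 5.64 and 6.73 CPM and then 21.6, 91.4, 0 and 30.8 CPM, higher in 3 of 4 libraries (log2 ratio 1.98 ± 0.39, edgeR adjusted p = 0.0478). Its 44 UMIs in small clones came from 7 clones, 11 of them from 1 clone, and it was not called without library 1, 3 or 4 (log2 ratios 2.27, 2.08 and 1.81, adjusted p = 0.203, 0.11 and 0.856). By DESeq2, Trbv13-1 had a log2 ratio of −2.97 and was not called (adjusted p = 0.336). Trav14-3 has closely similar copies in the TRAV locus, between which reads can be split.

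When each clone was counted once, V gene usage did not differ detectably. Of 21 TRBV genes tested 0 were called (0%), with 1 at an unadjusted p under 0.05 and a lowest adjusted p of 0.482. Of 66 TRAV genes 0 were called (0%), with 4 at an unadjusted p under 0.05 and a lowest adjusted p of 0.354. The test was edgeR's quasi-likelihood test on numbers of clones with library as a block. With 110 small clones that had a TRB and 97 with at least 1 TRA, all chains of a clone being counted, the intervals below set what these numbers could show.

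TRBV12-2 and TRBV12-1 were the most used in both classes. TRBV12-2 was carried by 19.1% of small clones (21 of 110, Clopper-Pearson 12.2% to 27.7%) and 14.6% of singletons, and TRBV12-1 by 18.2% (20 of 110, 11.5% to 26.7%) and 12.5%. TRBV10 was carried by 10.0% (11 clones, 5.10% to 17.2%) and 5.66%. The call of TRBV12-2 together with TRBV13-2 was carried by 3.64% of small clones (4 clones, 1.0% to 9.05%) and 8.99% of singletons and had the smallest p of the TRBV genes (unadjusted 0.0429, adjusted 0.482, edgeR). TRBV13-1 was carried by 2.73% (3 clones, 0.566% to 7.76%) and 6.63%. TRBV15, which was at 0 UMIs above, was carried by 0 of 110 small clones (Clopper-Pearson 0% to 3.30%; a floor of 3 clones would be 2.73%), against 2.07% of singletons, so that no difference was detectable with this number of clones.

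Among TRAV genes, TRAV13-4-DV7 was carried by 5.15% of small clones (5 of 97, 1.69% to 11.6%) and 0.866% of singletons (log2 ratio 2.52 ± 0.90, edgeR unadjusted p = 0.00572, adjusted p = 0.354). By library these were 6.67%, 12.5%, 0% and 3.85% of small clones and 1.20%, 0.551%, 0.702% and 0.798% of singletons. TRAV9D-3 was carried by 0 of 97 (Clopper-Pearson 0% to 3.73%; a floor of 3 clones would be 3.09%), against 3.92% of singletons (unadjusted p = 0.0107, adjusted p = 0.354). TRAV14-3, which was called by UMIs, was carried by 3 small clones, or 3.09%, against 1.28% of singletons (adjusted p = 0.589). J genes were tested after the data were seen, and 0 of 42 TRAJ genes (0%) and 0 of 12 TRBJ genes (0%) were called, with 4 and 0 at an unadjusted p under 0.05. TRAJ7 had the smallest p, at 6.19% of small clones and 1.46% of singletons (adjusted p = 0.206, edgeR), and all 6 of its small clones were in library 4.

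**Figure D4:**
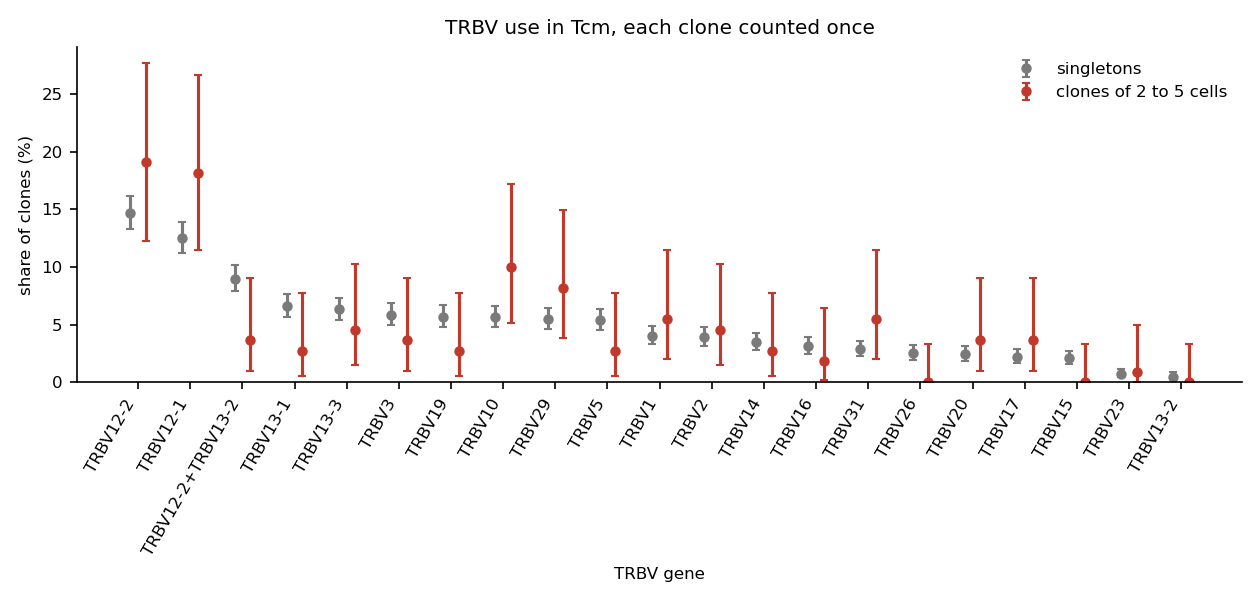
Percentage of clones in Tcm that carried each of the 21 TRBV genes tested, for singletons and for clones of 2 to 5 cells, each clone counted once over all libraries, with 95% Clopper-Pearson intervals. The intervals of small clones are wide, from 12.2% to 27.7% for TRBV12-2, and none of the 21 genes was called.

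TRB CDR3 sequences were slightly shorter in small clones. Their mean length was 42.1, 40.0, 42.0 and 41.1 bases in libraries 1 to 4, against 42.4, 42.4, 42.4 and 42.4 bases in singletons, which was lower in 4 of 4 libraries (difference −1.10 ± 1.01 bases, SD, n = 4, exact sign-flip p = 0.13, the smallest possible). Over all libraries the means were 41.4 ± 4.25 bases (SD, 99 clones) and 42.4 ± 4.26 bases (2299 singletons). Junction bases outside the germline V and J genes numbered 9.80 ± 4.05 in TRB of small clones and 10.4 ± 3.85 in singletons, a difference that was lower in 2 of 4 libraries (exact p = 0.5), and 2.98 ± 1.85 and 2.87 ± 2.16 in TRA. TRA CDR3 length had means of 41.0 and 41.1 bases. Clones that carried an additional TRB chain were 11.8%, 0%, 0% and 11.7% of small clones and 6.00%, 6.73%, 5.92% and 6.73% of singletons (exact sign-flip p = 0.75).

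The clone-size difference in Tcm was set against that in transitory Teff, the effector cluster with most cells in small clones (210 against 368 singletons). In transitory Teff itself 32 of 5363 genes were called (0.597%). The interaction of clone class with cluster was called for 13 genes (0.242%) by edgeR's quasi-likelihood test, 4 of them TCR genes (Trbv26, Trbv13-1, Trbv29 and Trbv15), with 357 at an unadjusted p under 0.05. The clusters differ in cell numbers, and some clones have cells in both. Gzmk, Nkg7, Ccl5 and Il7r went the same way in both clusters and were called in transitory Teff. Their log2 ratios there were 0.79 ± 0.13, 0.44 ± 0.08, 0.52 ± 0.12 and −1.27 ± 0.24 (edgeR adjusted p = 0.00178, 0.00799, 0.0491 and 0.00686). Gzma was −0.23 ± 0.13 there (adjusted p = 0.624). None of these had a called interaction (edgeR adjusted p from 0.108 to 0.977). The cytotoxic list had a median of 0.17 in transitory Teff and 0.20 in Tcm.

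Ifi27l2a and Gzmm had log2 ratios of opposite sign in the clusters. In transitory Teff, Ifi27l2a had 775, 1280, 886 and 911 CPM in singletons and 865, 1246, 1602 and 1520 CPM in small clones (log2 ratio 0.42 ± 0.11, edgeR adjusted p = 0.101). The difference of the log2 ratios, Tcm minus transitory Teff, was −1.42 ± 0.22 (edgeR adjusted p = 0.0015). Gzmm in transitory Teff fell from 134, 160, 166 and 57.0 CPM in singletons to 15.7, 51.2, 130 and 25.9 CPM in small clones, lower in 4 of 4 libraries (log2 ratio −1.43 ± 0.27, edgeR adjusted p = 0.00652), and the difference was 2.19 ± 0.35 (adjusted p = 0.00164). Without library 4 the Ifi27l2a difference was −1.03 with an adjusted p of 0.28, and without library 1 the Gzmm difference was 1.91 with an adjusted p of 0.101.

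Tox, a transcription factor of exhausted cells, rose with clone size in transitory Teff, from 150, 130, 158 and 214 CPM to 279, 320, 348 and 357 CPM, while Tcm had 70.3, 53.7, 72.8 and 53.0 CPM in singletons and 49.7, 57.1, 56.1 and 46.2 CPM in small clones (difference −1.27 ± 0.22, edgeR adjusted p = 0.00416, and 0.214 without library 1 and 0.0616 without library 4). Satb1, a chromatin organiser of naive and memory cells, fell in transitory Teff from 89.5, 33.8, 71.3 and 58.3 CPM to 12.5, 4.27, 21.7 and 24.0 CPM, and in Tcm had 137, 133, 140 and 127 CPM and then 108, 126, 123 and 105 CPM (difference 1.64 ± 0.33, adjusted p = 0.0234). The nucleolar protein gene Npm1 (difference 0.49 ± 0.10, adjusted p = 0.0239) and Ppp1r14b, an inhibitor of protein phosphatase (0.99 ± 0.19, adjusted p = 0.0121), fell in small clones of transitory Teff. Gstp3, a glutathione transferase, had a difference of −0.96 ± 0.21 (adjusted p = 0.0477). Satb1 and Gstp3 were not called without any 1 of the 4 libraries, Npm1 was not without library 1, 3 or 4, and Ppp1r14b was not without library 1 or 4.

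Klrb1c and Tmem108 had 38 and 40 UMIs in transitory Teff singletons and 3 each in its small clones, so their differences, Tcm minus transitory Teff, of 2.91 ± 0.59 (adjusted p = 0.0234) and 3.07 ± 0.61 (adjusted p = 0.0232) rest on few UMIs, and neither was called without library 1, 3 or 4. In Tcm, Tmem108 had 79.7, 77.0, 69.8 and 72.2 CPM in singletons and 97.2, 91.4, 123 and 101 CPM in small clones, without overlap, and was not called (log2 ratio 0.42 ± 0.14, edgeR adjusted p = 0.707). Klrb1c, Satb1, Tmem108 and Gzmm had 242, 130, 74.9 and 131 CPM over all Tcm cells and 15.3, 41.5, 11.8 and 54.8 CPM over all transitory Teff cells. Whether singletons of transitory Teff include cells close to Tcm or Tn was not tested.

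**Figure D5:**
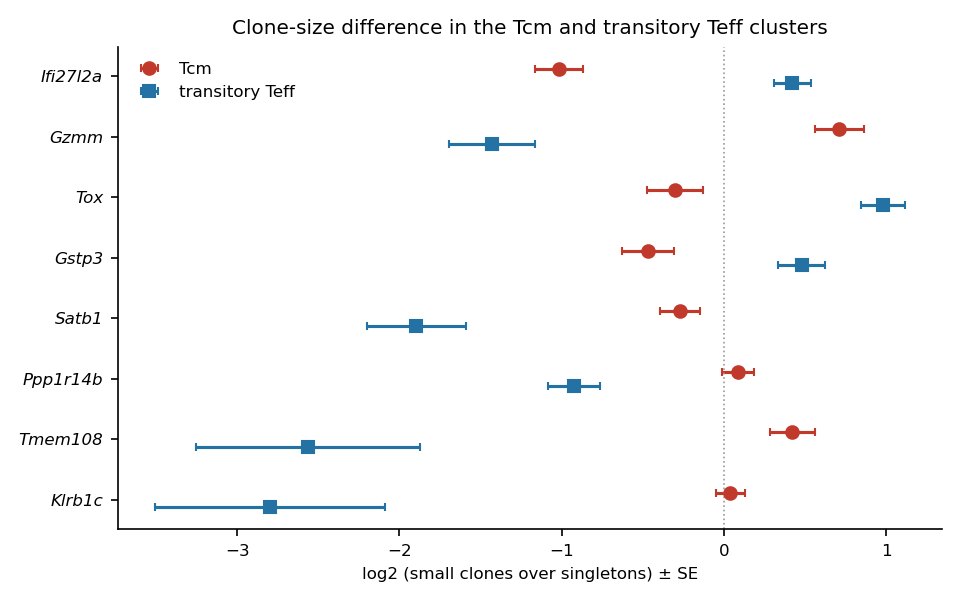
Log2 ratio of small clones over singletons, with SE, in Tcm (red circles) and in transitory Teff (blue squares), for 8 of the 9 genes outside the TCR loci whose clone-size difference differed between the clusters by test. Ifi27l2a lies at −1.01 in Tcm and 0.42 in transitory Teff, and Gzmm at 0.71 and −1.43.

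Singletons may include cells of small clones that were missed. Of the 2482 Tcm singletons, 288 had no TRA chain, and 90 had a TRB chain that lay in a clone of 2 to 5 cells when clonotypes were defined by TRB alone. With that definition 11.1% of Tcm cells lay in small clones, the log2 ratio of Ifi27l2a was −0.59 (edgeR adjusted p = 0.0313) and that of Gzmm 0.30 (adjusted p = 0.939). Barcodes of sister cells differed by at least 8 of 16 bases. Across libraries 56 barcode sequences occurred more than once, and 4 of the small-clone Tcm cells had such a barcode.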

How the data were processed

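CD8+ T cells from 4 libraries were profiled by droplet 5′ single-cell RNA sequencing with TCR sequencing. The submitters' processing notes name Cell Ranger 7.00 and the mm10 build. The authors deposited UMI counts per gene and cell with a cluster name for each cell, and a TCR table in which clonotypes had been assigned with scRepertoire. Per the study's methods, reads were downsampled across libraries and cells were kept by UMI number, mitochondrial content and Cd3 and Cd8a detection. The mitochondrial share of each cell's UMIs was deposited by the authors as a fraction and is given here as a percentage. TCR rows were joined to cells by barcode. How doublets were treated before deposit was not examined here, and none were removed.

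UMI counts were summed per library and clone class, giving 8 sums for 4 libraries, and tested with edgeR 4.0.16 (R 4.3.3; quasi-likelihood, TMM, library as a block, genes with a mean of at least 20 CPM, Benjamini-Hochberg adjusted p under 0.05). Log2 ratios are small clones over singletons, ± SE. V and J genes with at least 10 clones were tested in the same way on numbers of clones. The interaction used 16 sums with transitory Teff. Per-library properties were compared by an exact two-sided sign-flip permutation test. The sign-flip p-values measure the spread between libraries, each of which is 1 pool of mice under 1 treatment. Those of edgeR rest on a variance moderated over genes (median prior degrees of freedom 20.6 in the main comparison). The spread of a gene's own libraries therefore weighs less in them, and they do not take clones into account. Gene coordinates are from the GENCODE M21 annotation (GRCm38). The edgeR test was checked on counts simulated with 200 changed genes and the same dispersion for every gene, where 5.18% of 193 calls were false. DESeq2 1.42.0, other filters, scaling, clone definitions and left-out libraries were tried as alternatives.

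The members, gene lists and tests were chosen with earlier results of these data known. Named genes were those called, up to 8 in each direction with the smallest p among genes that differed the same way in 4 of 4 libraries, those with the smallest p or highest level of each list, genes of the interaction, and fixed markers. One of the fixed markers is not reported here.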

Additional observations from a re-analysis of the deposited data

Results flagged for a closer look

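Of 142 groups of 4 libraries examined, 12 held a library far from the other 3, where chance marks about 1 in 20 groups. In small clones, library 2 stood above the others for Ifi27l2a (182.8 against 65.2 to 79.9 CPM), Gzmm (445.6 against 179.5 to 194.4 CPM) and macrophage transcripts (125.7 against 100.7 to 101.5 CPM). Library 2 held 15 small-clone cells. In small clones of library 3, with 12 cells, Lair1 was high (67.3 against 22.9 to 30.2 CPM) and Il2rb low (751.5 against 971.2 to 1004.6 CPM). Pdcd1 was at 6.48 CPM in small clones of library 1, on 3 UMIs, and at 0 in the others. Among singletons, Fgl2 was high in library 1 (108.9 against 69.5 to 73.3 CPM) and Tigit low in library 2 (18.2 against 36.0 to 38.1 CPM).

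Clones without a TRA chain made up 6.25% of singletons in library 3, against 11.9% to 12.8% in the others, and 0% of its small clones, against 11.1% to 13.3%. Clones without a TRB chain made up 1.32% of singletons in library 3, against 0.905% to 0.962%. The mean TRA CDR3 length of singletons was 41.4 bases in library 2, against 41.0 in the other libraries.

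The log2 ratio of small clones over singletons differed between Tcm and transitory Teff by edgeR's test of the interaction for 13 genes. Tcm minus transitory Teff was −1.42 for Ifi27l2a, −1.27 for Tox, −0.96 for Gstp3, 2.19 for Gzmm, 0.99 for Ppp1r14b, 3.07 for Tmem108, 2.91 for Klrb1c, 1.64 for Satb1 and 0.49 for Npm1. Among TCR genes it was −6.12 for Trbv26, −3.02 for Trbv13-1, 2.19 for Trbv29 and −8.59 for Trbv15. The values for Trbv26 and Trbv15 were fitted to sums with 1 and 0 UMIs in small clones of Tcm and give no bound.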

How the results depend on the processing

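The 4 called genes became 32 without a filter, 2 at a mean of 50 CPM, 1 without the library block, 2 with 1 TRA and 1 TRB only, 9 with clonotypes by TRB alone, 7 with sizes over all libraries, 2 by DESeq2, and 3 to 7 when a library was left out. Ifi27l2a was below 0 under all 22 alternatives (−1.39 to −0.59) and called under 18. It was not called without library 4 (−0.73, adjusted p = 0.491), without the library block (−1.15, 0.331), with 1 TRA and 1 TRB only (−0.79, 0.182) or among cells with at most 2 UMIs of other-cell transcripts, which was chosen after the data were seen (−1.09, 0.0757). The interaction called 3 to 14 genes when a library was left out, with 3 without library 4 and 4 without library 1. The share of Tcm cells in small clones was 11.1% by TRB alone and 5.93% to 8.82% when a library was left out. The share of sisters in Tcm was 84.5% to 89.1%. The difference in genes per cell at 2500 UMIs was −0.375, and 8.38 with 1 TRA and 1 TRB only. V and J genes had 0 calls under every alternative run. Of 1140 log2 ratios of 54 named genes, 40 changed sign, all of genes that were not called. Il2rb became 0.0069 with RLE scaling, 0.0142 without the library block, 0.0098 by TRB alone, 0.0224 with sizes over all libraries, 0.0106 with sizes among Tcm cells, 0.0163 in all-Tcm clones, 0.0031 in pairs and by DESeq2, and −0.0557 to 0.0285 without a library. Cd3e became 0.0016 with RLE scaling, 0.0269 with 1 TRA and 1 TRB only, 0.0012 with sizes over all libraries, and −0.0386 to 0.0149 without a library. Cd8a became 0.0228 without the library block, 0.041 with 1 TRA and 1 TRB only and 0.0836 by TRB alone, and was −0.126 to 0.0141 without a library, as Cd44 was −0.419 to 0.0379 and Klra7 −0.203 to 0.0005. Klrb1c became −0.022 without a filter, −0.0805 in thinned cells, −0.0348 with few other-cell UMIs and −0.0074 without Ccr7 or Il7r UMIs. Tigit became −0.0689 by TRB alone, −0.108 with sizes among Tcm cells, −0.0271 in all-Tcm clones, −0.11 in thinned cells −0.148 by DESeq2, and −0.0814 to 0.215 without a library. Gzmb became −0.0106 by TRB alone and −0.281 in thinned cells and was −0.0944 to 0.718 without a library. Fyn became −0.0644 in thinned cells and Tcf7 0.0154 with 1 cell per clone. By TRB alone Il7r became 0.134, Stmn1 0.285 and Klra7 0.14. The causes were not tested.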
